A study of Homo sapiens with 12 samples.

Results

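Homologous recombination and Fanconi repair genes were followed in A375 cells, an established human melanoma line with mutant BRAF. The 37 genes were taken by name from a list that was drawn up with earlier results of these data known, although its rule used no measured value, and include 4 checkpoint kinases and 2 mismatch repair genes beside the recombination and crosslink repair factors. All 37 were found among the 58347 genes of the count files, and all 37 were among the 16740 genes with enough counts to be tested. The cells received dimethyl sulfoxide (DMSO) vehicle, tretinoin, vemurafenib or vemurafenib plus tretinoin (the combination) for 8 h, with 3 RNA sequencing libraries per group, 12 in all. A dose of 5 µM is listed for each group, the vehicle included. Tretinoin is a retinoid and activates the retinoic acid receptors, while vemurafenib blocks the BRAF kinase that is mutated in this line. All libraries came from this 1 cell line, and nothing in the sources used here says that the replicates were grown as separate cultures, so the p-values measure the spread between these libraries, which may be technical.

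Homologous recombination mends broken chromosomes by copying the sister chromatid. The broken ends are trimmed to single strands by the MRE11-RAD50-NBN complex with CtIP (RBBP8), EXO1 and the BLM helicase. BRCA1, PALB2 and BRCA2 then prepare the single strand for pairing, and XRCC2, XRCC3 and the RAD54 proteins assist the search for the sister copy. The Fanconi pathway unhooks crosslinked DNA strands: a core complex with the ubiquitin-conjugating enzyme UBE2T attaches ubiquitin to the pair FANCD2 and FANCI, which directs nucleases and recombination to the lesion. Both pathways work mainly while DNA is being copied and shortly after, and many of their genes are transcribed most in dividing cells.

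Total counts ranged from 13510235 to 21534377 per library. The drugs left their known marks: 8 of 8 genes of the feedback and target list of the BRAF-MEK-ERK pathway fell with vemurafenib (median log2 fold change -4.32), among them the phosphatase gene DUSP6 (-6.07), and 3 of the 7 tested genes of the retinoid list rose with tretinoin, led by DHRS3 (2.91), whereas the receptor gene RARB was not called (0.82, adjusted p = 0.10 in edgeR). With vemurafenib alone DHRS3 also rose, by 1.74, and RARB by 2.80. Tretinoin replicate 1 stood apart from the other tretinoin libraries, with a chi-square per degree of freedom over genes of 21.4 and 24.4 against them, where all other pairs within a group lay between 2.69 and 9.28. Of the markers listed for melanocyte lineage and melanoma, VIM, AXL, S100B, S100A1 and MITF were detected, whereas SOX10 had no count in any library and TYR had at most 1. PMEL had 8 to 25 raw counts, MLANA 1 to 19 and DCT 0 to 18, so the melanocyte programme was represented only in small part. Summed markers of lymphoid and myeloid cells reached at most 5.28 CPM (counts scaled to library size), with CD3E and CD14 too low to test, and PTPRC, the member of this list that could be tested, rose in all treatments (1.46 with tretinoin, 1.36 with vemurafenib and 1.77 with the combination). Summed keratinocyte and epithelial markers were at 12.6 to 16.8 CPM in DMSO, 10.0 to 15.2 in tretinoin, 29.4 to 32.3 in vemurafenib and 26.7 to 36.0 in the combination, where KRT14 rose with vemurafenib (1.24) and EPCAM and CDH1 were too low to test. Of the 4 fibroblast markers, COL1A1 and PDGFRB rose with vemurafenib, and their summed level was 14.6 to 16.9 CPM in DMSO, 15.4 to 16.7 in tretinoin, 44.5 to 47.4 in vemurafenib and 31.4 to 35.8 in the combination. Summed endothelial markers were at 5.28 to 6.55 CPM in DMSO, 12.7 to 17.2 in tretinoin, 2.4 to 3.17 in vemurafenib and 5.34 to 6.2 in the combination. CDH5 rose with tretinoin (1.54) and fell with vemurafenib (-4.96) and with the combination (-0.53). VWF rose with vemurafenib (2.13) and with the combination (2.04), and PECAM1 was not called against DMSO. The part of these markers in the results was not tested.

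At the level of the untreated cell the 37 genes spanned a wide range. Per kilobase of exon, UBE2T stood highest in DMSO at 40.7 ± 6.07 CPM (mean ± SD, n = 3), followed by the exonuclease gene EXO1 at 23.7 ± 2.60 and the mismatch recognition gene MSH6 at 20.8 ± 0.926. The gap between EXO1 and MSH6 was little more than the SD of EXO1, whereas UBE2T stood apart from both on this measure. Length counted all annotated exons of a gene, 1652 bases for UBE2T, 4140 for EXO1 and 10993 for MSH6. The order therefore also depends on the annotation, and the transcripts in use were not measured. The lowest were RAD54B at 0.499 ± 0.0766, RAD50 at 0.320 ± 0.0271 and RAD51B at 0.298 ± 0.0663 CPM per kilobase. The counting ignored strand and left out fragments that fell on exons of more than 1 gene, and 79.7% of the exon bases of RAD50 and 59.1% of those of RAD54B are shared with a neighbouring gene, so their levels are uncertain. The same holds for XRCC3 (76.7%, shared with KLC1), RAD54L (25.1%), FANCA (23.6%), FANCL (19.7%), ATR (16.4%), MSH6 (16.2%, shared with FBXO11) and FANCF (11.3%), whose counts come from the remaining exons in all groups alike. PMS2 and CHEK2 have near-identical copies elsewhere (PMS2CL and CHEK2P2), which can take or lend reads. The median coefficient of variation of the 37 genes was 7.0% in DMSO, 6.7% in tretinoin, 4.4% in vemurafenib and 5.1% in the combination.

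Vemurafenib lowered a large part of the set and raised little of it. With vemurafenib alone, 15 of the 37 genes fell relative to DMSO (40.5%) and 2 rose (5.41%), at an adjusted p under 0.05 in edgeR's quasi-likelihood test across all 16740 genes. Of all genes tested, 26.3% fell and 26.4% rose in that comparison. With the combination, 18 of the 37 fell (48.6%) and 4 rose (10.8%), where 26.5% of all genes fell and 27.1% rose. The median log2 fold change of the 37 genes was -0.14 with vemurafenib and -0.11 with the combination, against 0.02 and 0.03 over all genes. Both comparisons use the same DMSO libraries. FANCB and MSH6 had the largest falls in both, and EXO1, XRCC3, XRCC2, BLM, UBE2T, RBBP8 and RAD54L followed in differing order, whereas RAD52 had the largest rise in both.

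The split between rises and falls depended on the scaling. The main analysis scaled libraries by edgeR's trimmed mean of M-values (TMM). When they were scaled by total counts alone, the median of all genes moved to 0.21 with vemurafenib and 0.19 with the combination, and that of the 37 genes to 0.06 and 0.05. Vemurafenib then lowered 11 of the 37 genes and raised 12, and the combination lowered 9 and raised 10. FANCA, FANCI, FANCM and NBN lost their call in both comparisons, and CHEK2, FANCE, PALB2, RAD51AP1 and XRCC2 lost theirs in the combination. Relative to the median of all genes, the median of the set was lower under either scaling.

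**Figure D1:**
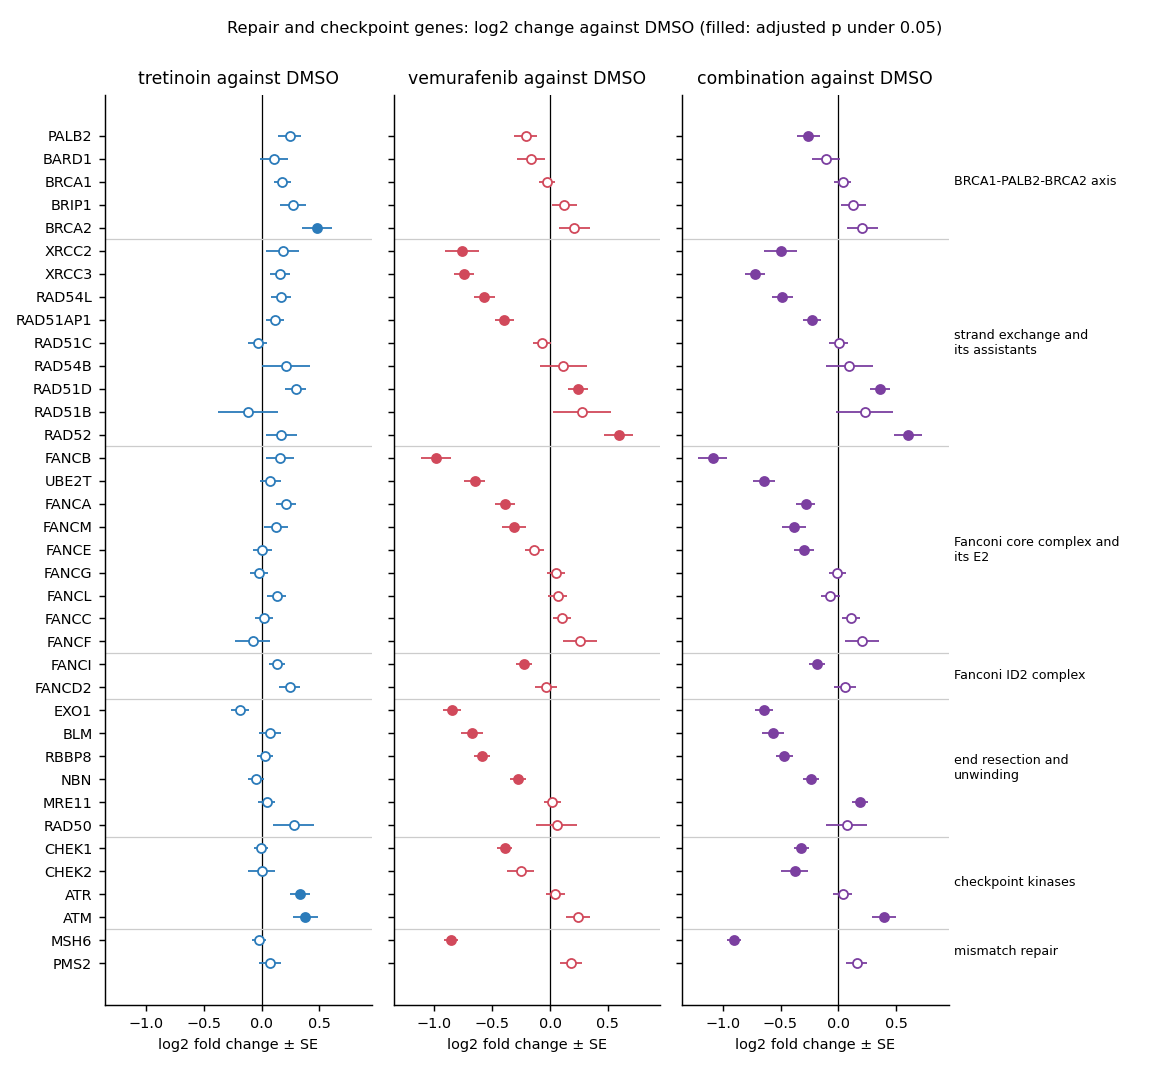
Log2 fold change against DMSO (horizontal axes) of the 37 genes, ordered by role, for tretinoin, vemurafenib and the combination, with bars for the standard error of the edgeR fit and filled points for an adjusted p under 0.05. Under TMM scaling 3, 17 and 22 points are filled, with FANCB and MSH6 farthest to the left under vemurafenib and the combination and RAD52 farthest to the right, and scaling by total counts alone moves the vemurafenib and combination panels to the right.

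The promoters of the genes at the extremes are shown because the 37 genes include falls, rises and genes not called within the same protein complexes. FANCB had the largest fall and RAD52 the largest rise with the combination, and MSH6 and EXO1 led the falls of 2 other role groups. Each window holds 250 bases before and 50 after the most upstream annotated start (RefSeq, GRCh38.p14), 5′ to 3′ on the gene's strand. FANCB (ENSG00000181544.13) lies at chrX:14835961-14873069, MSH6 (ENSG00000116062.14) at chr2:47695530-47810101, EXO1 (ENSG00000174371.16) at chr1:241847967-241895148 and RAD52 (ENSG00000002016.17) at chr12:912077-990053 (GENCODE 29, GRCh38). The windows are chrX:14873020-14873319 on the minus strand for FANCB, chr2:47782895-47783194 on the plus strand for MSH6, chr1:241847954-241848253 on the plus strand for EXO1 and chr12:989992-990291 on the minus strand for RAD52. Capitals mark matches to the E2F 8-mers TTTCCCGC, TTTCGCGC, TTTGCCGC and TTTGGCGC, the cell cycle homology element TTTGAA and the NF-Y box CCAAT, on either strand.
FANCB: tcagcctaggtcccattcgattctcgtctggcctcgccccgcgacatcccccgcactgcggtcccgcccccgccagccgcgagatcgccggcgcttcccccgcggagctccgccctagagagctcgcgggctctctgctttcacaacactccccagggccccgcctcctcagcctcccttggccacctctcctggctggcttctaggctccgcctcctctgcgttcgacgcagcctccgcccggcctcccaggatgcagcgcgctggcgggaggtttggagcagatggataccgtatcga
MSH6: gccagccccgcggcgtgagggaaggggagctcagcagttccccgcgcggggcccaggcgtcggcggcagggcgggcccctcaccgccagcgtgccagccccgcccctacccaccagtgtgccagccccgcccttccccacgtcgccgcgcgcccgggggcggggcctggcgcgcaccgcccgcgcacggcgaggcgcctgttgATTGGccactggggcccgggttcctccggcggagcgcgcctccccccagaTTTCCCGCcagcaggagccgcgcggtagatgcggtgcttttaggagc
EXO1: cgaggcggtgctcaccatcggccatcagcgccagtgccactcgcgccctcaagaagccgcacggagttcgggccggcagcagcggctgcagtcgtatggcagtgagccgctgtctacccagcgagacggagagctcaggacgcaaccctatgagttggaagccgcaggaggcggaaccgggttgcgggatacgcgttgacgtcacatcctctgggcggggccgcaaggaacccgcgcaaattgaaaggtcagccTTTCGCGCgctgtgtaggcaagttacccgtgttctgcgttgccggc
RAD52: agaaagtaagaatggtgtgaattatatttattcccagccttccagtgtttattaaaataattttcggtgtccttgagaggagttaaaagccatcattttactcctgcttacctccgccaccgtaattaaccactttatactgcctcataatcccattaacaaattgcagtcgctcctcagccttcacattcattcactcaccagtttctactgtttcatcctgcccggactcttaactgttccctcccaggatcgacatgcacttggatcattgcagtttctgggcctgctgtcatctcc
MSH6 and EXO1 each held an E2F 8-mer just past the start, beginning 3 and 4 bases after it, and MSH6 also held an NF-Y box that reads ATTGG on this strand, 47 bases before it. Of the 4 windows of MSH6, 1 held an E2F 8-mer and 1 an NF-Y box, and of the 2 of EXO1, 1 held an E2F 8-mer. Which start these cells use was not measured. FANCB held none of these and 3 GC boxes (GGGCGG, either strand, left in lower case). RAD52 held no match to any of the 4 motifs.

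Windows were found for 34 of the 37 genes, with NBN, FANCI and RAD54B unmatched. An E2F 8-mer lay in 8 of their 50 windows (16.0%), compared with 3.31% of all 35116 promoter windows and 4.75% of the windows of tested genes. In counts by gene, a match in any of its windows was enough. By gene the E2F 8-mer was found in 4 of the 16 with a window that fell with the combination (XRCC2, FANCA, EXO1 and MSH6), in 3 of the 14 that were not called (FANCC, FANCD2 and PMS2) and in 0 of the 4 that rose, compared with 6.49% of tested genes with a window. The NF-Y box was found in 11 of the 16 that fell, 4 of the 14 not called and 2 of the 4 that rose, compared with 43.0% of the tested genes that have a window. The GC box lay in 72.0% of the windows of the set and in 64.2% of those of tested genes, and TTTGAA in 8.00% and 10.7%. Matches in the printed windows did not overlap each other, although the GC box and the E2F letters can share bases. A match is a description of the letters in these windows, and nothing about binding was measured.

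The genes of the BRCA1-PALB2-BRCA2 axis, which prepares the trimmed strand for pairing, mostly did not pass the test. With vemurafenib 0 of 5 passed in edgeR, 0 also at an unadjusted p under 0.05 and 0 in DESeq2, and the combination lowered only PALB2, the bridge between BRCA1 and BRCA2. Of all 16740 genes in edgeR, 26.3% fell and 26.4% rose with vemurafenib, and 9691 had an unadjusted p under 0.05. The combination lowered 26.5% of all genes and raised 27.1%. PALB2 measured 481, 364 and 448 TMM-normalised counts in DMSO, 544.5, 474 and 518 in tretinoin, 369.8, 363 and 387 in vemurafenib and 341, 389 and 351 in the combination. The lowest DMSO library lay among the combination libraries, so these groups overlapped, whereas all combination libraries were below all tretinoin libraries. The log2 fold change of PALB2 was -0.26 ± 0.10 (SE) for the combination against DMSO (adjusted p = 0.037) and -0.21 ± 0.10 for vemurafenib (adjusted p = 0.089), and the first was lost without DMSO replicate 1 (-0.18) or 3 (-0.24) or combination replicate 1 (-0.23) or 3 (-0.25), and also with the replicate number as a block, in the fit of the 2 groups alone, with at least 10 counts in every library and with no low-count filter. BRCA1, the ubiquitin ligase at the head of the pathway, was measured at -0.03 with vemurafenib (95% interval -0.17 to 0.12) and 0.04 with the combination (-0.11 to 0.18), the narrowest intervals of this group. BARD1, its partner, stood at -0.16 and -0.11, the helicase BRIP1 at 0.12 and 0.13, and BRCA2 at 0.21 in both, with intervals that include 0.

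The genes of the paralog complexes split. XRCC2, XRCC3, RAD51B, RAD51C and RAD51D encode related proteins that form 2 complexes and assist strand pairing. XRCC2 and XRCC3, a member of each, fell, while RAD51D rose and RAD51B and RAD51C were not called. XRCC3 measured 562.5, 482 and 569 normalised counts in DMSO and 607, 590.2 and 609.7 in tretinoin, against 314, 315 and 338 in vemurafenib and 307, 356 and 319 in the combination. All 6 libraries with vemurafenib lay below all 6 without it. The log2 fold change was -0.74 ± 0.09 with vemurafenib (adjusted p = 1.8e-06) and -0.72 ± 0.09 with the combination (adjusted p = 2.3e-06). XRCC2 fell by 0.76 ± 0.15 and by 0.50 ± 0.14. Its DMSO libraries were far apart, and the lowest, at 300.3, was below the highest combination library, at 330.1. The combination call was lost without DMSO replicate 1 (-0.36). RAD51D rose by 0.24 ± 0.09 with vemurafenib (adjusted p = 0.027) and by 0.36 ± 0.09 with the combination (adjusted p = 0.0019). The vemurafenib call was lost without DMSO replicate 2 (0.19), vemurafenib replicate 1 (0.21) or vemurafenib replicate 3 (0.24), and with no low-count filter. RAD51C stood at -0.07 and 0.00, with a 95% interval of -0.17 to 0.17 for the combination. RAD51B, with raw counts between 26 and 72, had an interval of -0.24 to 0.80 with vemurafenib.

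Among the other genes of strand pairing, RAD52 rose. This protein anneals single strands and can stand in for BRCA2. It measured 149, 116 and 128 normalised counts in DMSO, 156, 145 and 142.5 in tretinoin, 198, 209.5 and 185 in vemurafenib and 211, 215 and 172 in the combination. Every library with vemurafenib was above every library without it. The log2 fold change was 0.59 ± 0.12 with vemurafenib (adjusted p = 0.00065) and 0.60 ± 0.12 with the combination (adjusted p = 0.00052). RAD54L, the motor that opens the sister copy, fell by 0.57 ± 0.09 and by 0.48 ± 0.09, and RAD51AP1, which stimulates strand pairing, fell by 0.39 ± 0.08 and by 0.23 ± 0.08. The combination call of RAD51AP1 was lost without DMSO replicate 1 (-0.20), combination replicate 2 (-0.22) or combination replicate 3 (-0.22), with at least 10 counts in every library (-0.18) and with no low-count filter (-0.23). The close relative RAD54B, with 36 to 72 raw counts, was at 0.12 and 0.09 and was not called.

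In the Fanconi core complex, 4 of 9 genes fell with vemurafenib and 5 of 9 with the combination, where 26.3% and 26.5% of all genes fell. In either comparison 0 of the 9 rose, also at an unadjusted p under 0.05 and in DESeq2, where 26.4% and 27.1% of all genes rose in edgeR. FANCB, which joins the catalytic part of the complex, showed the largest fall of the whole set. It measured 277, 244 and 297.5 normalised counts in DMSO, 366, 280.4 and 275 in tretinoin, 136, 141 and 138 in vemurafenib and 122, 120.0 and 143 in the combination. The libraries with vemurafenib lay within a narrow band, far below all others. The level with vemurafenib was 0.506 times that in DMSO (log2 fold change -0.98 ± 0.13, adjusted p = 4.5e-06), and with the combination 0.471 times (-1.09 ± 0.13, adjusted p = 1.3e-06). UBE2T measured 1317, 1006 and 1323 in DMSO, 1200.2, 1362 and 1283 in tretinoin, 757, 756 and 811 in vemurafenib and 736, 831 and 764 in the combination. Its groups with and without vemurafenib did not overlap, and it fell by 0.65 ± 0.09 with either treatment (adjusted p = 1.7e-05 in both).

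FANCA, a subunit of the complex, fell by 0.39 ± 0.09 with vemurafenib and by 0.28 ± 0.09 with the combination, and FANCM, the translocase that anchors the complex to DNA, fell by 0.31 ± 0.10 and by 0.39 ± 0.10. The vemurafenib call of FANCM was lost without DMSO replicate 3 (-0.23) or vemurafenib replicate 3 (-0.27). FANCE, which binds FANCD2, fell by 0.30 ± 0.08 with the combination, and with vemurafenib alone it stood at -0.14 ± 0.08 (adjusted p = 0.18). FANCL, the ubiquitin ligase subunit, and its companion subunits FANCC, FANCF and FANCG were not called against DMSO, with values from -0.07 to 0.26. For the ligase FANCL the 95% interval was -0.10 to 0.23 with vemurafenib, which lies wholly above the interval of FANCB, -1.25 to -0.72.

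The substrates of the complex, FANCD2 and FANCI, form a clamp on DNA. FANCI measured 1824, 1803 and 1895 normalised counts in DMSO, 2177, 1958 and 1923 in tretinoin, 1690.3, 1572 and 1457 in vemurafenib and 1573, 1684 and 1593 in the combination. All libraries with vemurafenib were below all DMSO libraries, by a small margin for the highest. FANCI fell by 0.23 ± 0.07 with vemurafenib (adjusted p = 0.013) and by 0.19 ± 0.07 with the combination (adjusted p = 0.034). The combination call was lost without DMSO replicate 1 (-0.20), DMSO replicate 3 (-0.17), combination replicate 1 (-0.17) or combination replicate 3 (-0.18), with at least 10 counts in every library and with no low-count filter, and the vemurafenib call without vemurafenib replicate 3 (-0.18). FANCD2 was measured at -0.03 with vemurafenib (95% interval -0.23 to 0.17) and 0.06 with the combination (-0.14 to 0.25).

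Of the 6 genes of end resection and unwinding, 4 fell in each comparison, where 26.3% of all genes fell with vemurafenib and 26.5% with the combination. EXO1 and BLM led these falls. EXO1, which digests the broken end over long stretches, measured 1576, 1964 and 1787 normalised counts in DMSO, 1494, 1619 and 1559.9 in tretinoin, 979, 986 and 1000.0 in vemurafenib and 1046, 1173 and 1188 in the combination. Every vemurafenib library lay below every combination library, and these lay below all libraries without vemurafenib. EXO1 fell by 0.85 ± 0.08 with vemurafenib (adjusted p = 1e-07) and by 0.64 ± 0.08 with the combination (adjusted p = 2.4e-06). The helicase gene BLM measured 624, 610.3 and 716 in DMSO, 694, 713 and 650.3 in tretinoin, 467, 356 and 402 in vemurafenib and 450.4, 439 and 431 in the combination. Again no library with vemurafenib reached the lowest without it, and BLM fell by 0.67 ± 0.10 (adjusted p = 1.5e-05) and by 0.57 ± 0.10 (adjusted p = 8e-05). RBBP8, whose product starts resection, fell by 0.59 ± 0.07 and by 0.47 ± 0.07.

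The 3 genes of the MRE11-RAD50-NBN complex, the sensor of broken ends, did not move together. NBN fell by 0.28 ± 0.07 with vemurafenib (adjusted p = 0.0023) and by 0.24 ± 0.07 with the combination (adjusted p = 0.007). The nuclease gene MRE11 stood at 0.02 ± 0.07 with vemurafenib and rose by 0.19 ± 0.07 with the combination (adjusted p = 0.037), a call kept in only 4 of the 12 fits that left out a library, where its values ran from 0.15 to 0.22, and lost with no low-count filter. RAD50, with 49 to 72 raw counts, was at 0.06 and 0.07, with a 95% interval of -0.32 to 0.44 for vemurafenib.

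**Figure D2:**
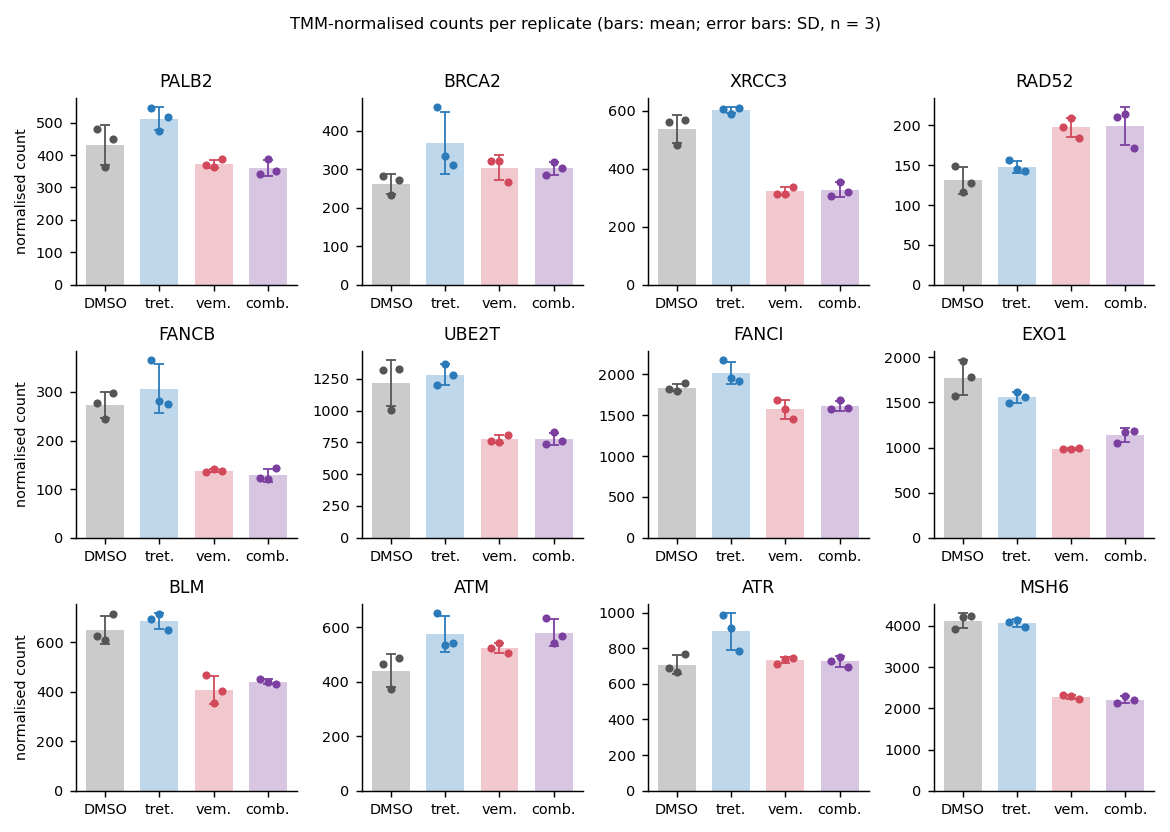
TMM-normalised counts (vertical axes, each from 0) of 12 genes in the 12 libraries, with points for libraries, bars for the group mean and error bars for the SD (n = 3). XRCC3, FANCB, UBE2T, EXO1, BLM and MSH6 are lower, and RAD52 higher, in all 6 libraries with vemurafenib than in all 6 without it.

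The checkpoint kinases also divided. CHEK1, the kinase that restrains origin firing and entry into mitosis when replication stalls, fell by 0.39 ± 0.06 with vemurafenib (adjusted p = 6e-05) and by 0.32 ± 0.06 with the combination (adjusted p = 0.00037). CHEK2, which acts downstream of ATM, measured 312, 336 and 311 normalised counts in DMSO, 285, 328 and 342.5 in tretinoin, 243, 313 and 245 in vemurafenib and 271, 219 and 248 in the combination. Vemurafenib replicate 2 lay within the DMSO range, whereas all combination libraries were below it. CHEK2 stood at -0.25 ± 0.12 with vemurafenib (adjusted p = 0.074) and fell by 0.38 ± 0.12 with the combination (adjusted p = 0.010), a call lost without combination replicate 2 (-0.31). ATM, the kinase that answers broken ends, measured 467, 372 and 486 in DMSO, 653, 536 and 542 in tretinoin, 523, 543 and 507 in vemurafenib and 635, 542 and 567 in the combination. All treated libraries were above all DMSO libraries. Its log2 fold change was 0.24 ± 0.11 with vemurafenib (adjusted p = 0.060), and it rose by 0.39 ± 0.10 with the combination (adjusted p = 0.0043).

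Of the mismatch repair genes, MSH6 fell and PMS2 did not pass the test. MSH6, which finds mispaired bases, had the highest counts of the set, at 3917.5, 4229.5 and 4242 in DMSO, 4091, 4155 and 3973 in tretinoin, 2317, 2297 and 2233.5 in vemurafenib and 2126, 2290.1 and 2203 in the combination. The gap between the libraries with and without vemurafenib was many times the spread within groups. The level was 0.553 times that of DMSO with vemurafenib (adjusted p = 4e-09) and 0.534 times with the combination (adjusted p = 1.8e-09). PMS2, part of the nuclease that acts after recognition, stood at 0.18 ± 0.09 and 0.16 ± 0.09.

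Genes of DNA replication moved with these falls. Of 24 listed S phase and replication genes, 22 fell with vemurafenib and 22 with the combination, with medians of -0.69 and -0.61, and under scaling by total counts 21 and 22 fell. Their summed level was 4880 to 4930 CPM in DMSO and 4450 to 4820 in tretinoin, against 3020 to 3050 in vemurafenib and 3170 to 3210 in the combination. E2F1, the transcription factor of the S phase programme, fell by 1.33 ± 0.07 with vemurafenib, and UHRF1 by 1.30 ± 0.09. Of 18 mitosis genes, 8 fell and 6 rose with vemurafenib and 7 fell and 3 rose with the combination. Their summed levels were 3540 to 3670 CPM in DMSO, 3190 to 3300 in tretinoin, 3360 to 3480 in vemurafenib and 3290 to 3350 in the combination. Of all genes, 26.3% fell and 26.4% rose with vemurafenib, and 26.5% fell and 27.1% rose with the combination. The part of these cell cycle genes in the falls of the repair genes was not tested. In bulk RNA, fewer cells in S phase and less of these transcripts in each cell cannot be told apart.

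**Figure D3:**
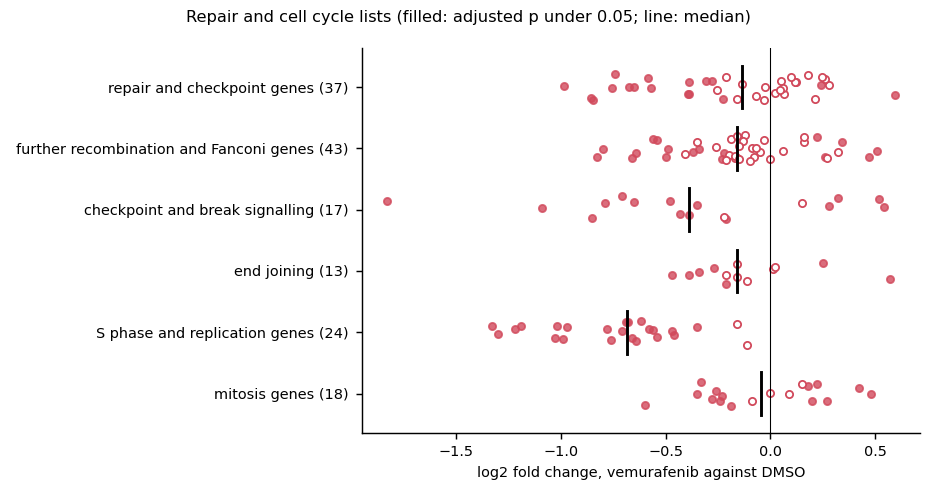
Log2 fold change for vemurafenib against DMSO under TMM scaling (horizontal axis) of the 37 genes and of 5 other lists, with a point for each gene tested (number in brackets), filled at an adjusted p under 0.05, and a line at each list's median. The S phase list lies farthest to the left, with a median of -0.69 against -0.14 for the 37 genes, and scaling by total counts alone turns the median of the 37 genes to 0.06 and that of the S phase list to -0.49.

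The other genes of the same pathways, taken from lists by function, also held both falls and rises. Of 43 further recombination and Fanconi genes, 12 fell and 5 rose with vemurafenib (median -0.16) and 11 fell and 5 rose with the combination (median -0.11). Falls were thus 27.9% and 25.6% of this list, close to the 26.3% and 26.5% of all genes, and rises 11.6% in both. Scaling by total counts alone gave 8 falls and 9 rises with vemurafenib and a median of 0.03. FIGNL1, an ATPase of recombination, fell by 0.64 ± 0.08 with vemurafenib and by 0.60 ± 0.08 with the combination, and USP1, the enzyme that removes ubiquitin from FANCD2, by 0.54 ± 0.07 and by 0.50 ± 0.07. The nuclease subunit ERCC1 fell by 0.66 ± 0.08 and by 0.56 ± 0.08, whereas its partner ERCC4 stood at 0.16 ± 0.09 and 0.20 ± 0.08 and was not called. RECQL5, a helicase that restrains recombination, rose by 0.51 ± 0.08 and by 0.73 ± 0.08.

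Among checkpoint and break signalling genes, 11 of the 17 tested fell and 4 rose with vemurafenib (median -0.39), and 10 fell and 4 rose with the combination (median -0.45). Falls were thus 64.7% and 58.8% of this list, and rises 23.5% in both. Over all genes 26.3% and 26.5% fell and 26.4% and 27.1% rose. With scaling by total counts 9 fell with vemurafenib and 10 with the combination. The phosphatase gene CDC25A, which drives entry into S phase and is a target of CHEK1, fell by 1.83 ± 0.08 with vemurafenib. TIPIN, of the fork protection complex, fell by 1.09 ± 0.11, while its partner TIMELESS stood at 0.15 ± 0.07 and was not called. CLSPN, the adaptor for CHEK1, fell by 0.79 ± 0.12, and TP53BP1, which shields ends from resection, rose by 0.54 ± 0.08.

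The share of falls also differed with how highly a gene was counted. All genes tested were sorted by mean normalised count into 4 bins of 4185 genes. The share that fell with the combination was 6.93% in the lowest bin, then 19.2% and 32.8%, and 47.2% in the highest. Of the 37 genes 0 lay in the lowest bin, 9 in the next, 19 in the third and 9 in the highest. Of these, 3, 8 and 7 fell with the combination. With vemurafenib alone 2, 6 and 7 of them fell, where 19.0%, 32.4% and 47.4% of all genes in those bins fell. Outside the highest bin the falls with vemurafenib were thus close to the share of all genes. Over all genes, rises with the combination made up 30.8% of the lowest bin and 14.3% of the highest, with their peak in the bin next to the lowest, and 1, 3 and 0 of the 37 rose in the 3 upper bins.

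**Figure D4:**
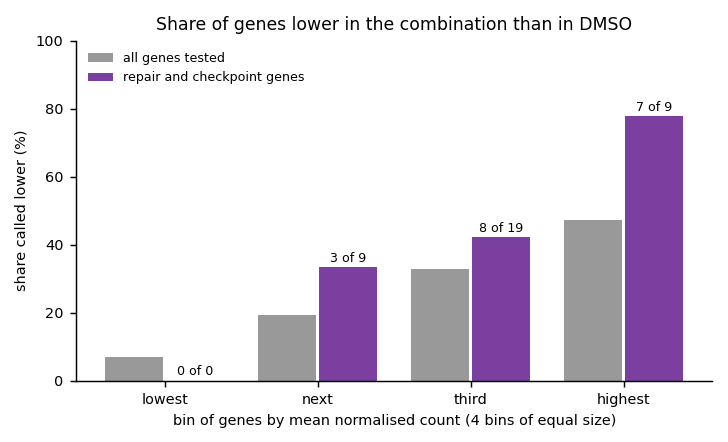
Share of genes (%, vertical axis) called lower in the combination than in DMSO under TMM scaling, in 4 bins of mean normalised count (horizontal axis), for all genes tested (grey) and for the 37 repair and checkpoint genes (purple, with counts above the bars). The grey bars climb from 6.93% to 47.2%, and the purple bars stand for 3 of 9, 8 of 19 and 7 of 9 genes.

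The addition of vemurafenib to tretinoin asked the same question on a second background, with libraries that the comparison of vemurafenib with DMSO does not use. Against tretinoin, the combination lowered 20 of the 37 genes (54.1%) and raised 1 (2.70%), where 25.0% of all genes fell and 24.1% rose, and the median of the 37 was -0.27 against 0.02 over all genes. With scaling by total counts, which moved the median of all genes to 0.11, 16 fell and 3 rose. All 15 genes that fell with vemurafenib alone fell here too, 15 of these 20, and RAD52 rose in both comparisons. Across the 37 genes the log2 fold changes of the 2 comparisons had a Pearson correlation of 0.904 and a Spearman correlation of 0.892, and over all 16740 genes the Pearson correlation was 0.849. These describe genes, which are not independent replicates, and both comparisons come from 1 fit with a shared normalisation. The same sign was seen in 30 of 37 genes. Neither the overlap of calls nor the match of sign was counted over all genes, so these counts do not show a trait particular to the set.

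FANCB again led, and fell by 1.25 on the log2 scale (SE 0.13, adjusted p = 2.7e-07). MSH6 fell by 0.88 ± 0.06, XRCC3 fell by 0.88 ± 0.09 and UBE2T fell by 0.72 ± 0.09. PALB2 fell by 0.50 ± 0.10 (adjusted p = 0.00042), with no overlap of the groups. ATR, the kinase that answers stalled forks, fell by 0.30 ± 0.08 (adjusted p = 0.0068), whereas it stood at 0.05 with vemurafenib against DMSO. FANCL fell by 0.20 ± 0.08 (adjusted p = 0.047), a call lost in DESeq2 and in 5 of the 12 fits that left out a library. NBN fell by 0.19 ± 0.07 (adjusted p = 0.026) and lost its call without combination replicate 1 (-0.18) or 2 (-0.20) or tretinoin replicate 1 (-0.15). The calls of NBN and FANCL were also lost in the fit of the 2 groups alone, with scaling by total counts, with at least 10 counts in every library and with no low-count filter. That of FANCL was lost with the DESeq2 size factors and the replicate block too, and that of ATR with scaling by total counts. BRCA2 stood at -0.27 ± 0.13 (adjusted p = 0.090).

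**Figure D5:**
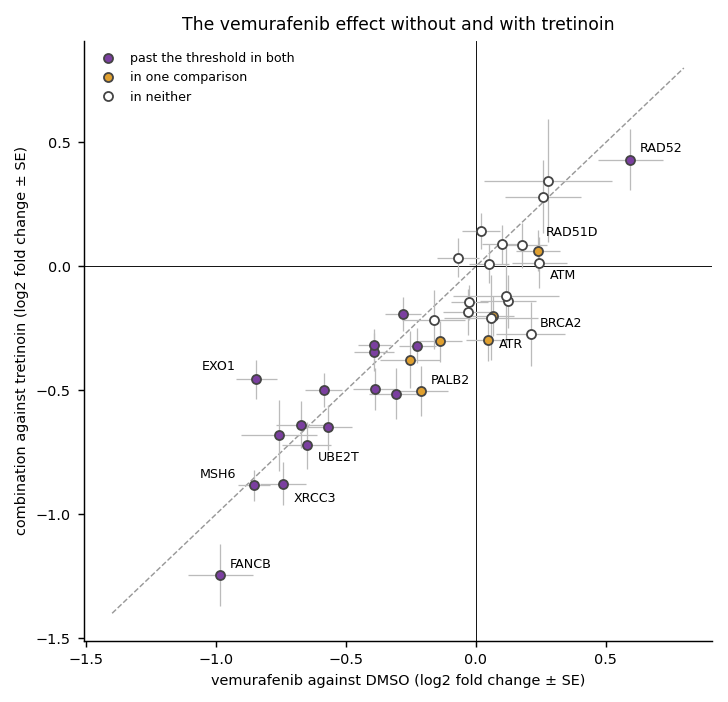
Log2 fold change of the 37 genes for vemurafenib against DMSO (horizontal axis) and for the combination against tretinoin (vertical axis), with standard errors, a dashed line of equal change, and colours for genes past an adjusted p of 0.05 under TMM scaling in both, in 1 or in neither comparison. Points run along the dashed line from FANCB at the lower left to RAD52 at the upper right, EXO1 lies above it, and ATR, PALB2 and BRCA2 lie below it.

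Tretinoin alone moved little. It raised 3 of the 37 genes (8.11%) and lowered 0, where 3.48% of all genes rose and 2.2% fell. In edgeR 10 of the 37 had an unadjusted p under 0.05, as did 3915 of all 16740 genes. Of these 10, EXO1 (-0.19) was the only 1 below 0. DESeq2 also raised 3 and lowered 0. Most of the values were above 0, 29 of 37 (78.4%) against 51.9% of all genes, with a median of 0.13 against 0.01. BRCA2, a mediator of strand pairing, measured 282, 233 and 272 normalised counts in DMSO, 461, 333 and 312 in tretinoin, 322, 322 and 266 in vemurafenib and 285, 319 and 304 in the combination. All tretinoin libraries were above all DMSO libraries, and replicate 1 stood well above the others. BRCA2 rose by 0.48 ± 0.13 (adjusted p = 0.043). ATR measured 689, 666.5 and 767 in DMSO, 986, 916 and 784 in tretinoin, 712, 739.8 and 744 in vemurafenib and 729.8, 753 and 695 in the combination, so that only tretinoin alone stood above DMSO. It rose by 0.33 ± 0.09 (adjusted p = 0.028), and ATM rose by 0.38 ± 0.11 (adjusted p = 0.045).

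These 3 calls were close to the threshold. None of them was kept when only the tretinoin and DMSO libraries were fitted, and the number of the 37 genes called ran from 0 (without DMSO replicate 1 or 2) to 4 when a library was left out. Without tretinoin replicate 1, the library that stood apart over all genes, BRCA2 was at 0.29, ATM at 0.28 and ATR at 0.26, none of them called, and RAD51D alone was called (0.33). The same omission left 19 of the 20 falls of the combination against tretinoin, with NBN lost. Only 1 gene was called in several other fits: without tretinoin replicate 2 BRCA2 alone, and without vemurafenib replicate 1 or 2 or combination replicate 2 or 3 ATR alone. RAD51D otherwise stood at 0.29 ± 0.09 (adjusted p = 0.056). Tretinoin moved 0 of the 24 S phase genes in edgeR, with 3 at an unadjusted p under 0.05 and 0 called in DESeq2, and lowered 5 of the 18 mitosis genes, of which scaling by total counts kept 1. Of the 43 further recombination and Fanconi genes 0 were called in edgeR, with 8 at an unadjusted p under 0.05 and 0 called in DESeq2.

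When tretinoin was added to vemurafenib, 0 of the 37 genes were called in edgeR or in DESeq2. Of all genes, 4.47% were called in either direction in edgeR. In edgeR 3 of the 37 had an unadjusted p under 0.05, as did 2375 of all 16740 genes. Those 3 were EXO1 at 0.20 ± 0.08 (adjusted p = 0.22), MRE11 at 0.17 ± 0.07 (adjusted p = 0.28) and RAD51AP1 at 0.16 ± 0.08 (adjusted p = 0.35). The values of the set ran from -0.16 to 0.26. The 95% interval was -0.28 to 0.27 for BRCA2, -0.19 to 0.17 for ATR and -0.07 to 0.36 for ATM, the genes that tretinoin raised from the DMSO level.

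The interaction of the drugs is the change with the combination beyond the sum of the changes with each drug on the log2 scale. It was called for 0 of the 37 genes in edgeR and in DESeq2, where 0.806% of all genes were called in edgeR. In edgeR 4 of the 37 had an unadjusted p under 0.05, as did 2619 of all 16740 genes. EXO1 stood at 0.39 ± 0.11 (adjusted p = 0.13), ATR at -0.35 ± 0.12 (adjusted p = 0.20), BRCA2 at -0.48 ± 0.19 (adjusted p = 0.24) and FANCL at -0.26 ± 0.11 (adjusted p = 0.28). BRCA2 and ATR were called with tretinoin alone and not with the combination, but the interaction did not pass the test for either. Of the 37 values, 26 were below 0, with a median of -0.10, where 8601 of all 16740 genes were below 0, with a median of -0.01. The interaction subtracts the change with tretinoin alone, which was above 0 for 29 of the 37, so this lean is not separate from that one.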

How the data were processed

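RNA sequencing counts of 12 A375 libraries, 3 for each of 4 treatments, were used. The counts deposited by the authors are raw fragment counts for each gene, made without normalisation after aligning strand-specific poly(A) libraries with STAR 2.5.3a to GRCh38.p10 and counting on GENCODE 27 genes in union mode with strand ignored. The reads were not used here. Groups and replicate numbers came from the sample labels.

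Genes were filtered with filterByExpr, scaled by TMM and fitted in edgeR 4.0.16 (R 4.3.3) with a quasi-likelihood model holding a term for each treatment and no block, over all 12 libraries. In each comparison, Benjamini-Hochberg adjustment covered all 16740 genes, and an adjusted p under 0.05 was called. The study's own tool, DESeq2 (1.42.0, without shrinkage), was run as an alternative. Intervals are at 95% with 17 degrees of freedom, residual and prior together. Genes with few counts carry wide errors at a depth of 13510235 to 21534377 counts.

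The 37 genes and all other lists were chosen with earlier results of these data known. Values in every library are given for up to 2 genes per role group with the largest change in the combination among those called, and for each gene called with tretinoin. Gene positions and exon overlap came from GENCODE 29, and shared exon sequence of at least 150 bases at 98% identity was found with blastn 2.17.0. Promoter windows came from RefSeq on GRCh38.p14. The model was tested on simulated counts for the combination against DMSO. There edgeR recovered 10 of 50 genes changed by 0.3 on the log2 scale, 30 of 50 at 0.5, 42 of 50 at 1 and 47 of 50 at 2, with 4 false calls. Far fewer genes were changed there than were called in the data, where 27.1% rose and 26.5% fell. The adjusted threshold was therefore stricter in the simulation, and these recoveries do not give the share of changes missed in the data. Alternatives were DESeq2, its size factors, scaling by total counts, a fit without the low-count filter, a minimum of 10 counts in every library, a fit of the 2 groups alone, a replicate block, and each library left out in turn. Results for some genes of these pathways are not reported here.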

Additional observations from a re-analysis of the deposited data

How the results depend on the processing

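The falls with vemurafenib numbered 15 in edgeR, with 13 to 16 when a library was left out, and 11 to 15 under all other settings. The falls with the combination numbered 18, with 14 to 18 when a library was left out and 9 with scaling by total counts alone, and those against tretinoin 20, with 17 to 22. The rises with vemurafenib changed from 2 to 4 with at least 10 counts in every library, to 12 with scaling by total counts, to 1 with no low-count filter, and to between 1 and 3 when a library was left out (1 without DMSO replicate 2, vemurafenib replicate 1 or vemurafenib replicate 3). The rises with the combination changed from 4 to 10 with scaling by total counts. Against tretinoin they changed from 1 to 2 with at least 10 counts in every library, to 3 with scaling by total counts, and to between 1 and 2 when a library was left out (2 without tretinoin replicate 2, where FANCF was added). The 3 calls with tretinoin alone became 0 when only the 2 groups were fitted and 1 with the replicate number as a block, and ran from 0 to 4 when a library was left out. No gene changed sign with a call in either fit, and no other setting moved a count by over 1.5 times. The cause of these changes was not tested, except that fits of 2 groups or without a library hold fewer samples.

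Sharing a replicate number did not make libraries deviate together: the correlations of their deviations from the group means lay between -0.143 and 0.0872 over 18 pairs, with 0 over 0.1, and 2 of 12 libraries correlated best with their own number. With the replicate number as a block, vemurafenib lowered 15 genes and raised 3, the combination lowered 17 and raised 4, and tretinoin alone kept 1 call, ATM. The interaction of the drugs was not fitted on 2 groups, since it needs all 4.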

Other observations

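Genes of end joining, the route that mends breaks without a template, also held both directions. Of the 13 tested, 5 fell and 2 rose with vemurafenib (median log2 fold change -0.16) and 5 fell and 2 rose with the combination (median -0.14), which is 38.5% falls and 15.4% rises in each, beside 26.3% and 26.4% of all genes with vemurafenib and 26.5% and 27.1% with the combination. With scaling by total counts 1 fell and 2 rose with vemurafenib and the median was 0.03. LIG4, the ligase of the pathway, fell by 0.39 ± 0.08 with vemurafenib and by 0.42 ± 0.08 with the combination, and XRCC5, which encodes a subunit of the Ku ring that binds broken ends, fell by 0.27 ± 0.07 and by 0.30 ± 0.07. XRCC6, which encodes the other Ku subunit, stood at -0.16 ± 0.08 and -0.14 ± 0.08 and was not called, and PRKDC, the kinase of the pathway, at 0.01 ± 0.08 and 0.04 ± 0.08. POLL, a gap-filling polymerase, rose by 0.57 ± 0.08 and by 0.68 ± 0.08.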
